A study of Xenopus tropicalis with 9 samples.

Results

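The genes described here were those whose RNA was close to absent from the ribosomal RNA depleted libraries of the oocyte and the early blastula and present in that of the late blastula. A gene was taken when its RPKM (its reads scaled to the length of its exons in kilobases and to the mapped reads of the library) was below 0.3 in RZ oocyte, below 0.3 in RZ stage 6 and at least 1 in RZ stage 9. The rule was met by 64 of the 15288 genes, which is 0.419% of them, and 9162 genes reached 1 RPKM in RZ stage 9. The RZ values that chose the genes are given as a description and carry no test.

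The embryos were those of the frog Xenopus tropicalis, made by in vitro fertilization in crosses of outbred animals, and no gene or agent was varied. Libraries of polyA RNA, which was selected on oligo(dT), were made from the stage VI oocyte, freed from its follicle with collagenase, from the early (stage 6) and late (stage 9) blastula, from the gastrula at stage 12 and neurula at stage 16, and from the early larva at stage 30. For the first 3 of these there was also an RZ library, made from total RNA after its ribosomal RNA had been removed. Each of the 9 libraries held RNA of 3 biological replicates that had been pooled, so each condition had 1 library, the spread between replicates is unknown, and differences between libraries are given without a test.

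The early frog embryo divides on RNA and protein stored in the egg, and its own genome is largely silent until the mid-blastula transition. The paper states that a number of genes are already transcribed before that transition. Maternal factors such as the T-box factor VegT and nuclear beta-catenin start nodal ligand genes in vegetal cells and Siamois genes on the dorsal side. BMP signalling keeps up ventral regulators such as the Ventx homeobox factors. Most new messengers receive a poly(A) tail soon after they are made, though histone messengers are known without one. RNA captured on oligo(dT) and total RNA can thus be read side by side for each gene.

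The libraries held between 13422643 mapped reads (polyA stage 9) and 44490754 (polyA stage 6), and the RZ libraries between 22365493 (stage 6) and 23857216 (stage 9). On an exon of 1 kb 3 reads came to 0.224 RPKM in polyA stage 9 and to 0.126 RPKM in RZ stage 9. On longer exons the same level stands for more reads, and on shorter ones for fewer. Markers of follicle cells summed to 0.106 RPKM over 7 genes in RZ stage 9, with cyp17a1, foxl2, fshr and star at 0, and those of blood to 0.103 RPKM over 6 genes, with gata1, hba2, hba3 and hbe1 at 0. In the oocyte the follicle cell markers were higher, at 4.91 RPKM in polyA and 0.732 RPKM in RZ, against 0.0209 RPKM in polyA stage 6. Whether RNA of follicle cells added to the oocyte values of the 64 genes was not tested. None of these markers was among the 64 genes.

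Most of the 64 genes were present at a low level in the late blastula. Their RZ stage 9 values ran from 1.01 to 8.49 RPKM with a median of 1.57, and 27 lay below 1.5, 21 at 2 or above, 9 at 3 or above and 4 at 5 or above. They summed to 135.5 RPKM, 0.0716% of the summed RPKM of that library. In the earlier RZ libraries 28 were listed at 0 in the oocyte, 32 at stage 6 and 22 in both. These are bulk embryos, so RNA made in a few cells and a low level in every cell cannot be told apart.

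The highest RZ stage 9 values belonged to gs17, known in Xenopus laevis as a gastrula-specific transcript, at 8.49 RPKM, to the zinc finger gene znf527 at 7.06 RPKM and to admp, a BMP-like ligand of the organizer, at 6.51 RPKM. The zinc finger gene znf33b (5.69 RPKM), the gene model prdm9 (4.30 RPKM), the nodal inhibitor gene lefty (3.69 RPKM), the kinase anchor gene akap12 (3.49 RPKM), the Siamois gene sia2 (3.34 RPKM) and the nodal ligand gene nodal6 (2.80 RPKM) were also near the top. The top of the list thus held zinc finger genes and models beside ligands, an inhibitor and a homeobox factor of the early axis.

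**Figure D1:**
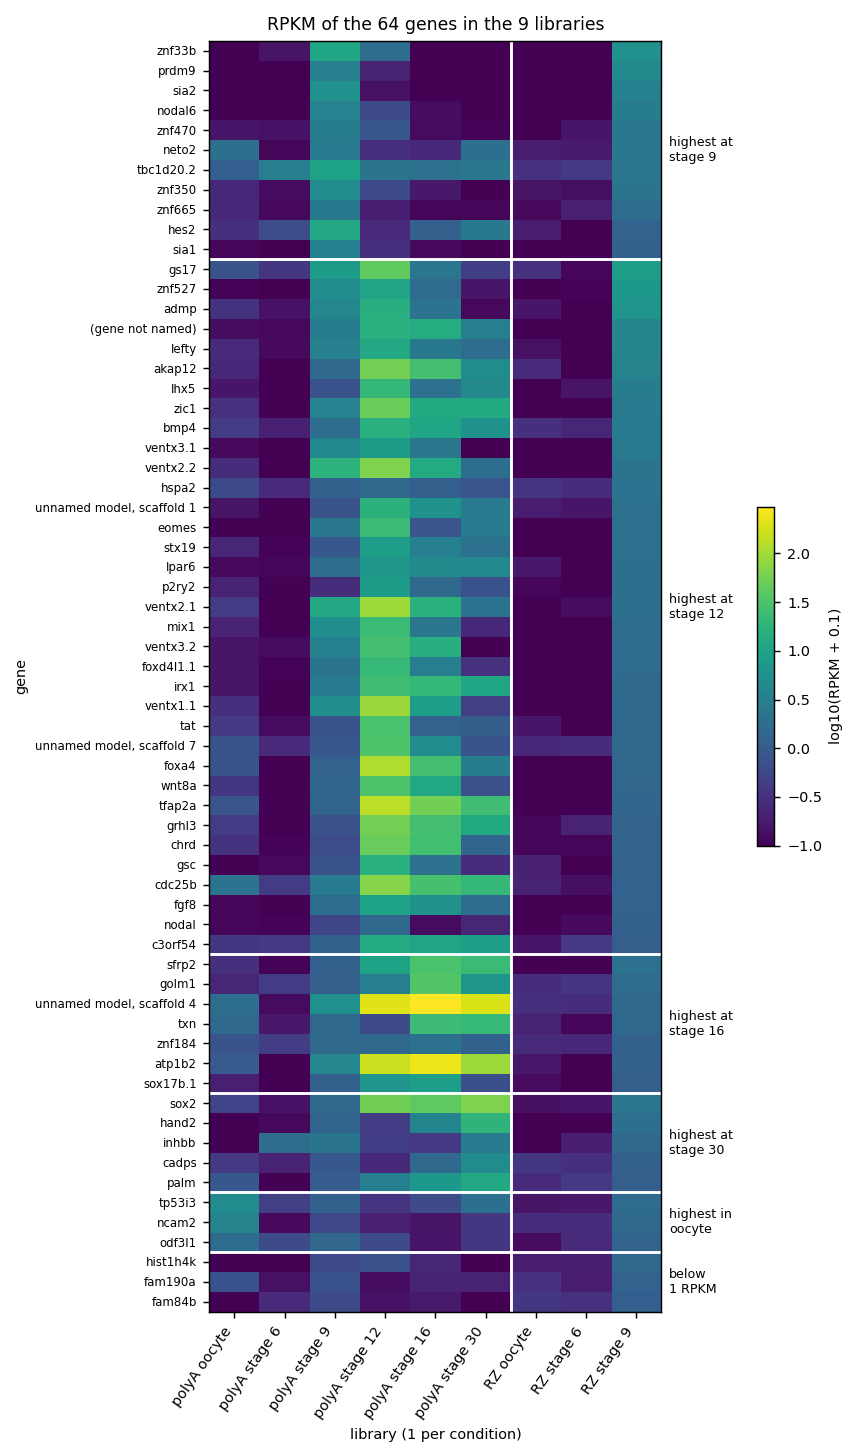
RPKM of the 64 genes in the 6 polyA and 3 RZ libraries, 1 library per column, as log10(RPKM + 0.1), with the genes grouped by the polyA library of their highest value and sorted within a group by RZ stage 9. The polyA columns show the largest group, 35 genes, highest at stage 12, and a smaller one, 11 genes, highest at stage 9, and the RZ columns show the rule.

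By name, 61 of the 64 were known genes and 3 were unnamed gene models. The models lay on scaffold 1 at 59249831 to 59254738, on scaffold 4 at 120364874 to 120367734 and on scaffold 7 at 117346094 to 117356488 of assembly JGI 7.1, all on the plus strand. By symbol or synonym 55 of the genes were matched in RefSeq, all as protein coding. Among these RefSeq lists prdm9 as LOC100135246, c3orf54 as inka1 and chrd as chrd.1. A symbol without a match does not mean that RefSeq lacks the gene. Of the 15 role lists set for this tissue 13 held at least 1 of the genes. The lists held 38 of the genes in all, and 26 stood on none.

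The largest shares of a list were those of the nodal and TGF-beta ligands, with 6 of 19 measured genes, and of the Siamois, Mix and other homeobox factors, with 5 of 16. The homeobox list also held otx and pitx genes, none of which met the rule. Of the ventral and BMP-responsive factors 7 of 30 met the rule, of the neural and ectoderm factors 4 of 28, of the organizer antagonists and of the endoderm factors 2 of 14 each, of the Wnt and FGF genes 2 of 25 and of the T-box factors 1 of 9. In most of these lists the genes left out fell short of 1 RPKM in RZ stage 9, as for 9 of the 13 other ligands and 11 of the 12 other antagonists. In the histone and zinc finger lists they failed on the other side, with 26 of 34 and 176 of 218 genes at 0.3 RPKM or more in RZ oocyte or RZ stage 6. Among the 33 keratin, mucin and epidermal genes none met the rule and 27 lay below 1 RPKM in RZ stage 9. The list of small RNA hosts and non-coding genes was not used here, as no gene name matched it. The rule used these values, so the shares describe the lists and are not evidence about them.

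Genes near the thresholds were of mixed kind. Just inside 1 RPKM in RZ stage 9 stood fam84b (1.01), c3orf54 (1.01) and the paralemmin gene palm (1.02), and just outside it has2 (0.953), the endoderm factor gene sox17a (0.934) and npas3 (0.922). On the oocyte side the secretion factor gene cadps (0.270 RPKM), fam84b (0.260) and the heat shock protein gene hspa2 (0.232) stood inside 0.3, and erbb3 (0.302), ctc1 (0.306) and gadd45g (0.309) outside. At stage 6 it was tbc1d20.2 (0.297), c3orf54 (0.276) and palm (0.273) inside, and aff3 (0.352), znf3 (0.356) and an unnamed model (0.361) outside.

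Of the 64 genes 8 gave whole reads in all 9 libraries and were taken as having a single exon. RZ stage 9 held 129 reads of sox2 (95% exact Poisson interval 108 to 153), 119 of znf33b (98.6 to 142), 109 of foxd4l1.1 (89.5 to 131) and 80 of the lysophosphatidic acid receptor gene lpar6 (63.4 to 99.6). In these 4 genes the interval of the RPKM stayed above 1, and the earlier RZ libraries held 0 to 3 reads. For the other 4 it spanned 1 RPKM. They were the zinc finger gene znf184 with 62 reads (0.854 to 1.43 RPKM), the histone H4 gene hist1h4k with 32 (0.980 to 2.02 RPKM), fam84b with 20 (0.616 to 1.56 RPKM) and the activin subunit gene inhbb with 17 (0.887 to 2.44 RPKM). Before stage 9 the intervals of these 4 genes also passed 0.3 RPKM in both RZ libraries. In RZ oocyte and RZ stage 6 the upper ends were 0.317 and 0.302 RPKM for znf184 and 0.334 and 0.345 for hist1h4k. They were 0.607 and 0.551 RPKM for fam84b and 0.341 and 0.532 for inhbb. The intervals cover counting error only, and the reads behind the genes with several exons are not known.

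In the polyA libraries, which the rule did not use, most of these RNAs were low before stage 9 but some were present. In polyA oocyte and polyA stage 6 both, 40 of the 64 genes lay below 0.3 RPKM, a count not made over all genes. At least 1 RPKM in either library was found for 9 of the 64 (14.1%). Among the 5258 genes below 0.3 RPKM in RZ oocyte and RZ stage 6 the share was 1.41%. Those genes had any level in RZ stage 9, while the 64 had at least 1 RPKM there. The sets were thus not matched, and the shares are a description. With the limit on the earlier RZ libraries at 0.1 or 0.5 RPKM the share of the genes meeting the rule was 6.98% or 23.5%. The 9 were the oxidoreductase gene tp53i3 with 4.62 RPKM in polyA oocyte, the adhesion gene ncam2 with 3.52, the phosphatase gene cdc25b with 1.99, the receptor partner gene neto2 with 1.76, the unnamed model on scaffold 4 with 1.71, odf3l1 with 1.56, the thioredoxin gene txn with 1.46, tbc1d20.2 with 1.0002 in polyA oocyte and 2.99 in polyA stage 6, and inhbb with 1.68 in polyA stage 6. For these genes polyA and RZ thus differ on whether the RNA was there before stage 9, and none of the list genes apart from inhbb was among them.

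At stage 9 polyA RNA of every one of the 64 genes was found, from 0.187 to 17.7 RPKM with a median of 1.59. At least 1 RPKM was reached by 48 of the 64, or 75%, against 97.9% of the genes with 1 RPKM or more in RZ stage 9 and 94.4% of the 3232 other genes in the same RZ range. That range, up to 8.49 RPKM, was not matched on level, so these shares are a description. The share among genes meeting the rule moved with the RZ stage 9 minimum, from 48.0% at 0.5 RPKM to 95.2% at 2 RPKM. The median log2 ratio of polyA to RZ was -0.10 over the 64 genes, with quartiles of -0.81 and 0.59, and 0.19 over 9095 other genes, with quartiles of -0.42 and 0.87. Other genes in the same RZ range had a median of 0.25. The quartiles of the 64 genes and of the others overlapped. The rule set a minimum on RZ stage 9, the lower term of this ratio, which favours a low ratio, so the medians are a description, and the median over the genes was 0.06 when both earlier RZ values had to be below 0.1 RPKM. Dividing each library by its median over 6640 genes present in all libraries lowers every ratio by 0.31 on the log2 scale, giving -0.41 for the 64 genes and -0.12 for the others.

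PolyA was at least 2-fold higher than RZ for 13 of the 64 genes, beside 21.5% of genes, and at least 2-fold lower for 9, beside 7.99%. The highest log2 ratios were those of the bHLH repressor gene hes2 (3.44), the ventral homeobox genes ventx2.2 (3.11) and ventx2.1 (2.81), tbc1d20.2 (2.21) and the sodium pump subunit gene atp1b2 (1.92). The lowest were those of the purinergic receptor gene p2ry2 (-3.29), the LIM homeobox gene lhx5 (-2.10), ncam2 (-1.60), hist1h4k (-1.59) and the unnamed model on scaffold 1 (-1.51). The p2ry2 value rests on 0.187 RPKM in polyA stage 9, below the 3 reads on 1 kb of that library. That of hist1h4k rests on 6 reads in polyA stage 9 (0.175 to 1.04 RPKM), against 32 in RZ stage 9. Across the 64 genes the rank correlation of the polyA and RZ levels at stage 9 was 0.46, and that of gene span and log2 ratio was -0.34, beside -0.28 over the other genes. Genes of 1 library share its depth and are not replicates.

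**Figure D2:**
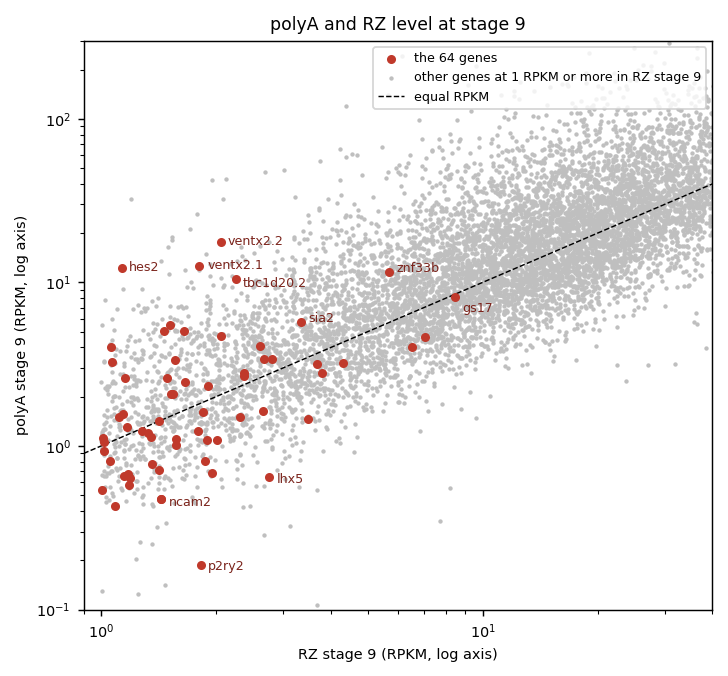
PolyA against RZ level at stage 9 on log axes, in RPKM, for the 64 genes (red) and the other genes with at least 1 RPKM in RZ stage 9 (grey), shown up to 40 RPKM on the RZ axis. Of the 64, 29 lie above the dashed line of equal RPKM and 35 below it, with hes2 farthest above and p2ry2 farthest below. With equal medians the counts are 22 and 42, and neither pair was counted over all genes.

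At stage 12 most of the 64 genes were higher than at stage 9, both as deposited and with equal medians, while the majority of all genes was lower as deposited but not with equal medians. PolyA stage 12 was at least 2-fold above stage 9 for 41 of the 59 genes with 1 RPKM or more in either library (69.5%), against 13.6% of all genes, and at least 2-fold below it for 16 (27.1%), against 58.9%. Within 2-fold lay hspa2 and znf184, and ncam2, hist1h4k, fam190a, cadps and fam84b were below 1 RPKM at both stages. The median stage 12 level was 10.3 RPKM and the median fold over stage 9 was 5.72, with 22 genes at 10-fold or more, a count not made over all genes. The median log2 change was 2.52, against -1.39 over all genes. With libraries set to equal medians 44 of 56 of the same genes were higher and 10 lower, against 30.9% and 25.4% of all genes.

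At stage 16 the genes were more evenly split. They were higher than at stage 9 in 30 of 59 (50.8%), against 26% of all genes, and lower in 18 (30.5%), against 44.6%. At stage 30 the shares were closer to those of all genes as deposited, with 23 of 55 higher (41.8%), against 31.7%, and 21 lower (38.2%), against 39.8%. Which of these 2 shares of the 64 genes was the larger at stage 30 changed with the thresholds of the rule, the fold and the minimum level. With equal medians 37 of 57 were higher and 12 lower at stage 16, against 41.9% and 21.9% of all genes, and 29 of 52 were higher and 20 lower at stage 30, against 47.1% and 20.6%. The median log2 change was 1.54 at stage 16, against -0.80 over all genes, and 0.67 at stage 30, against -0.53. These medians cover only genes above 0 in both libraries, 56 of the 59 at stage 16 and 47 of the 55 at stage 30. Genes that fell to 0 were left out, which raises the medians. Listed at 0 were 3 genes at stage 16 and 10 at stage 30, while 13829 and 14269 of all 15288 genes were above 0 there. All 3 comparisons share the polyA stage 9 library. Folds between stages are given as deposited, and equal medians would raise the log2 change by 1.39 at stage 12, 1.18 at stage 16 and 1.09 at stage 30.

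**Figure D3:**
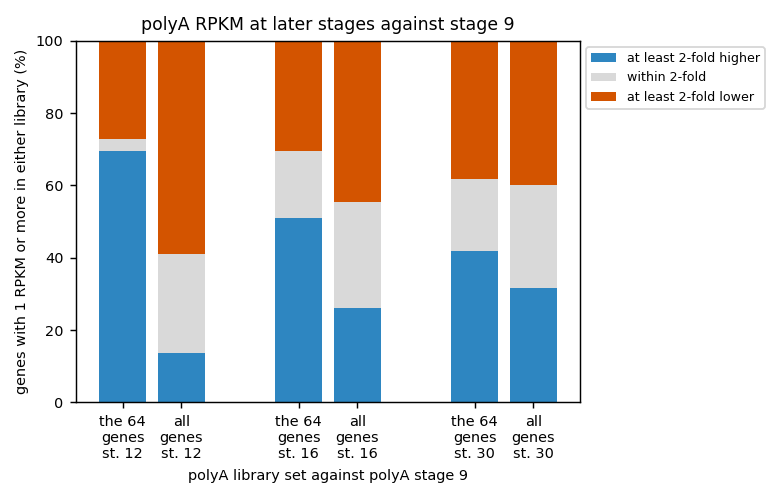
Share of genes at least 2-fold higher, within 2-fold and at least 2-fold lower than polyA stage 9 in the later polyA libraries, for the 64 genes (left bar of each pair) and all genes, over genes with 1 RPKM or more in either library. The share of the 64 genes that was higher was 69.5% at stage 12, 50.8% at stage 16 and 41.8% at stage 30, against 13.6%, 26% and 31.7% of all genes.

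By the library of the highest polyA level, 35 of the 61 genes that reached 1 RPKM were highest at stage 12, beside 4.49% of all genes. Of the others 3 were highest in the oocyte, beside 25.7% of all genes, 0 at stage 6, beside 2.16%, 11 at stage 9, beside 30.1%, 7 at stage 16, beside 15.3%, and 5 at stage 30, beside 22.2%. These shares of all genes are as deposited and were not recounted with equal medians. The median over genes present in all libraries was 21.2 RPKM in polyA stage 9 and 8.12 RPKM in polyA stage 12. That difference by itself favours a highest value at stage 9, so the shares are a description. With equal medians 36 of the 64 genes were highest at stage 12 and 10 at stage 9. The genes fam84b, fam190a and hist1h4k stayed below 1 RPKM in every polyA library. Of the 35 highest at stage 12, 26 had at stage 16 no more than 50% of their stage 12 level and 15 were below 1 RPKM at stage 30. The group was taken by its stage 12 value, so lower values at stages 16 and 30 follow from the choice. At stages 9, 12, 16 and 30 alike 21 of the 64 were at 1 RPKM or more. The counts of 26, 15 and 21 were not made over all genes and are a description. The 64 genes took 0.0645% of the summed polyA RPKM at stage 9, then 0.854%, 0.447% and 0.169% at stages 12, 16 and 30.

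The 11 genes highest at stage 9 had higher ratios of polyA to RZ than those highest at stage 12. Their median log2 ratio at stage 9 was 0.78 and 10 of the 11 had more polyA than RZ, against a median of -0.21 and 13 of 35 for the genes highest at stage 12. They peaked at 2.45 to 12.3 RPKM, and the genes highest at stage 12 at 1.42 to 136.6 RPKM. The grouping uses polyA stage 9 and favours a high ratio in the genes highest there, so the ratios are a description. With equal medians neto2 moved out of the stage 9 group.

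A small group of genes, the Siamois genes, nodal6 and zinc finger genes of one locus among them, had polyA RNA at stage 9 and less than 1 RPKM at every later stage. Of the 48 genes at 1 RPKM or more in polyA stage 9, 8 were below 1 RPKM at stages 12, 16 and 30, beside 4.58% of genes. These were sia1, sia2, nodal6, prdm9, znf665, znf470, znf350 and odf3l1, the last of which had been in polyA oocyte as well.

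The Siamois homeobox genes, direct targets of maternal Wnt signalling on the dorsal side, lay side by side on scaffold 40 (14308 to 36423). Values given without a stage run from the oocyte to stage 30 in polyA and from the oocyte to stage 9 in RZ. For sia2 polyA RPKM was 0 in the oocyte, 0 at stage 6 and 5.73 at stage 9, then 0.0451 at stage 12 and 0 at stages 16 and 30, and RZ RPKM was 0, 0 and 3.34. For sia1 polyA was 0.0141 in the oocyte, 0 at stage 6 and 3.28 at stage 9, then 0.205, 0.0233 and 0 at stages 12, 16 and 30, and RZ was 0, 0 and 1.07. Both genes were thus present in the stage 9 libraries and at trace level or 0 in the others. Reads that mapped to several positions had been left out, so the levels of near copies such as these, the Ventx and nodal genes, the zinc finger cluster and hist1h4k are uncertain.

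The nodal ligand gene nodal6 showed the same course, with polyA RPKM of 0 in the oocyte and at stage 6, 3.40 at stage 9, then 0.526, 0.0296 and 0 at stages 12, 16 and 30, and RZ RPKM of 0, 0 and 2.80. Its stage 12 level was 6.46-fold lower than at stage 9. Its neighbours nodal5 and nodal5.2 on scaffold 3 reached 0.673 and 0.173 RPKM in RZ stage 9 and missed the rule. The gene nodal, by contrast, was higher at stage 12, with polyA RPKM of 0.0169 in the oocyte, 0.00981 at stage 6 and 0.429 at stage 9, then 1.42, 0.0281 and 0.135 at stages 12, 16 and 30, and RZ RPKM of 0, 0.0243 and 1.08.

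**Figure D4:**
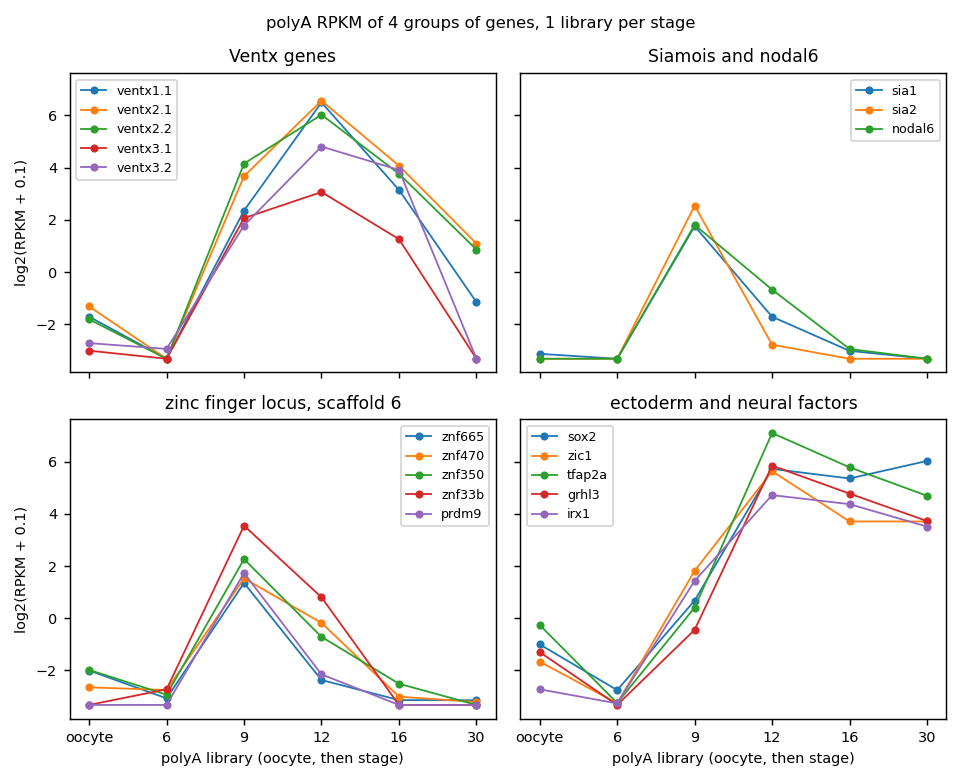
PolyA RPKM in the oocyte and at stages 6, 9, 12, 16 and 30, as log2(RPKM + 0.1), 1 library per point, for the Ventx genes, the Siamois genes with nodal6, 5 genes of the zinc finger locus, and 5 ectoderm and neural factors. The Siamois genes, nodal6 and the zinc finger genes are highest at stage 9, and the others at stage 12 or, for sox2 at 65.0 RPKM, stage 30.

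A stretch of 592 kb on scaffold 6 (141464395 to 142056031) held 8 genes of the table, 5 of which met the rule. These were znf665, znf470, znf350, znf33b and prdm9, zinc finger genes or gene models whose role in the frog is not known here. The stretch was bounded by znf665 and prdm9, so its ends follow from the rule. The read counts of znf33b, a single exon of 876 bp, show the course best, with 0 reads in polyA oocyte, 2 at stage 6 and 136 at stage 9, then 36 at stage 12 and 0 at stages 16 and 30, and 0, 0 and 119 reads in RZ oocyte, stage 6 and stage 9. On this exon the limit that a count of 0 allows, taken as 3 reads, is 0.148 RPKM in RZ oocyte and 0.153 in RZ stage 6, and the upper ends of the exact Poisson intervals are 0.182 and 0.188 RPKM. Its polyA level was 7.04-fold lower at stage 12 than at stage 9.

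The other 4 of these genes were also highest at polyA stage 9. For znf350 polyA was 0.153 RPKM in the oocyte, 0.0312 at stage 6 and 4.70 at stage 9, then 0.509, 0.0757 and 0 at stages 12, 16 and 30, and RZ was 0.0508, 0.0350 and 2.07 RPKM. For prdm9 polyA was 0, 0, 3.22, 0.125, 0 and 0 RPKM in the same order, and RZ 0, 0 and 4.30. The prdm9 model lay 589 kb from the start of znf665, with none of the 64 genes within 100 kb. Its log2 ratio of polyA to RZ at stage 9 was -0.41, whereas those of znf665, znf470, znf350 and znf33b were positive as deposited. With equal medians that of znf470 was -0.08. PolyA was 0.0939 RPKM at stage 12 and 2.45 at stage 9 for znf665, and 0.783 at stage 12 and 2.78 at stage 9 for znf470. With equal medians znf470 was within 2-fold at stage 12 and the other 4 stayed more than 2-fold lower.

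Of the remaining 3 genes in the stretch, znf33a and znf3 were likewise highest at polyA stage 9 and lower at stage 12. They missed the rule by their RZ stage 6 values of 0.484 and 0.356 RPKM. In polyA oocyte they had 1.09 and 0.969 RPKM, against at most 0.153 RPKM for the 5 genes that met the rule. PolyA was 1.05 RPKM at stage 12 and 16.4 at stage 9 for znf33a, and 1.21 at stage 12 and 9.89 at stage 9 for znf3. The gene hist1h2bk was listed at 0 in all polyA libraries. Of the 8 genes 7 were thus highest at polyA stage 9. Among the 191 zinc finger genes of the list that reached 1 RPKM in a polyA library, 51.8% were highest at stage 9, as deposited. A highest value at stage 9 was thus common in the family. Most of the list differed before stage 9, with 176 of 218 genes at 0.3 RPKM or more in RZ oocyte or RZ stage 6. Of the 170 listed genes with 1 RPKM or more in polyA stage 9, 7.65% were below 1 RPKM at all later stages.

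**Figure D5:**
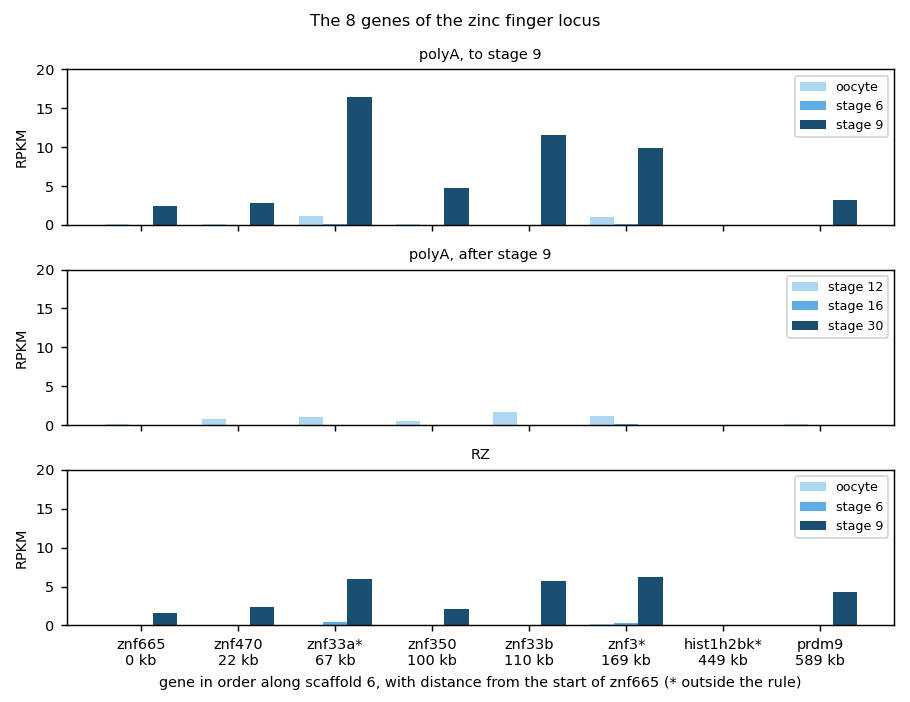
RPKM of the 8 genes of the zinc finger locus in order along scaffold 6, with the distance from the start of znf665 in kb, in the polyA libraries to stage 9, the polyA libraries after it and the RZ libraries, on axes from 0. All genes but hist1h2bk have their highest bars at stage 9, up to 16.4 RPKM for znf33a in polyA, and the stage 12 bars reach 1.64 RPKM for znf33b.

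Outside these loci hes2, tbc1d20.2 and neto2 were highest at stage 9 as well. For hes2 polyA was 0.209 RPKM in the oocyte, 0.558 at stage 6 and 12.3 at stage 9, then 0.160, 1.05 and 2.47 at stages 12, 16 and 30, and RZ was 0.0827, 0 and 1.14 RPKM. It stood apart from the Siamois and zinc finger genes by its return at stages 16 and 30. The Rab regulator gene family member tbc1d20.2 had 2.99 RPKM in polyA stage 6, 10.4 in polyA stage 9 and 1.97 to 2.29 RPKM afterwards. The polyA level of neto2 was 2.69 RPKM at stage 9, then 0.207, 0.153 and 1.75 at stages 12, 16 and 30.

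The ventral regulators went the other way and were all higher at the gastrula. The Ventx homeobox genes, which act downstream of BMP signals, formed a group of 6 within 61.1 kb of scaffold 7 (21449929 to 21511012), of which 5 met the rule and ventx1.2, with 0.869 RPKM in RZ stage 9, did not. For ventx2.1 polyA was 0.301 RPKM in the oocyte, 0 at stage 6 and 12.7 at stage 9, then 94.4, 16.7 and 2.03 at stages 12, 16 and 30, and RZ was 0, 0.0289 and 1.80 RPKM. For ventx2.2 it was 0.185, 0, 17.7, 65.1, 13.5 and 1.72 RPKM in polyA, and 0, 0 and 2.06 in RZ. For ventx1.1 it was 0.206, 0, 5.01, 90.3, 8.76 and 0.350 RPKM in polyA, and 0, 0 and 1.46 in RZ.

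These 3 genes were thus highest at stage 12, at 7.46-fold, 3.67-fold and 18-fold their stage 9 levels, and low again by stage 30. For ventx3.2 polyA was 3.34 RPKM at stage 9, then 27.9, 14.9 and 0 at stages 12, 16 and 30, and for ventx3.1 it was 4.09, 8.26, 2.29 and 0 RPKM. All 5 had a higher RPKM in polyA than in RZ at stage 9, with log2 ratios of 0.65 to 3.11. The ratios stayed positive with equal medians. The course was shared by ventx1.2, with 48.9 RPKM at stage 12 and 1.25 at stage 9. The order of levels among such copies is uncertain, as reads with several positions were left out.

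BMP4, the ligand that maintains ventral fate, its relative admp and the inhibitors chrd, sfrp2 and lefty were also higher at stage 12. For bmp4 polyA was 0.319 RPKM in the oocyte, 0.103 at stage 6 and 1.64 at stage 9, then 16.2, 11.1 and 5.83 at stages 12, 16 and 30, and RZ was 0.208, 0.138 and 2.66 RPKM. For admp polyA was 0.226, 0.0466, 4.01, 14.9, 2.03 and 0.0174 RPKM, and RZ 0.0605, 0 and 6.51. While bmp4 was still present in the larva, admp was close to 0 there.

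Chordin (chrd), the organizer protein that binds BMPs, had polyA RPKM of 0.224 in the oocyte, 0.00865 at stage 6 and 0.574 at stage 9, then 47.2, 26.3 and 1.28 at stages 12, 16 and 30, and RZ RPKM of 0.0135, 0.0108 and 1.19. The Wnt antagonist gene sfrp2 was highest later, with 1.08 RPKM at stage 9, then 10.4, 31.4 and 23.6 at stages 12, 16 and 30. The nodal inhibitor gene lefty had 3.18, 12.7, 2.46 and 1.66 RPKM at the same 4 stages. Of the 6 nodal and TGF-beta ligands 4 were at least 2-fold higher at stage 12 (admp, bmp4, lefty and nodal) and 2 lower (nodal6 and inhbb). The inhbb model is a scaffold of 468 bp with 17 reads in RZ stage 9, so its values are of low precision.

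Among the mesendoderm and organizer factors mix1, gsc, lhx5 and eomes were higher at stage 12, whereas the Siamois genes were lower. The T-box factor gene eomes had polyA RPKM of 0.00546 in the oocyte, 0 at stage 6 and 2.33 at stage 9, then 23.2, 0.716 and 2.61 at stages 12, 16 and 30, and RZ RPKM of 0, 0 and 1.90. For the homeobox gene mix1 polyA was 0.120, 0, 5.03, 23.2, 2.31 and 0.151 RPKM, and RZ 0, 0 and 1.65. The organizer homeobox gene gsc had polyA RPKM of 0, 0.0178, 0.671, 16.1, 1.93 and 0.178, and RZ RPKM of 0.111, 0 and 1.18. These 3 RNAs were far below their stage 12 levels at stage 16, with values between 0.716 and 2.31 RPKM.

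In lhx5 polyA was below RZ at stage 9, at 0.644 RPKM against 2.76 RPKM, and polyA reached 20.6 RPKM at stage 12. The forkhead gene foxa4, active in the organizer and notochord, was among the steepest of the list. Its polyA level was 0.684 RPKM in the oocyte, 0 at stage 6 and 1.14 at stage 9, then 117, 27.4 and 2.93 at stages 12, 16 and 30, and its RZ level was 0, 0 and 1.35 RPKM. Its stage 12 level was 103-fold that of stage 9. The endoderm factor gene sox17b.1 had 1.06 RPKM at stage 9, then 6.34, 8.54 and 0.608 at stages 12, 16 and 30.

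The signalling genes wnt8a and fgf8, ligands of the marginal zone, were both below 0.3 RPKM in polyA and at 0 in RZ before stage 9. For wnt8a polyA was 0.252 RPKM in the oocyte, 0 at stage 6 and 1.204 at stage 9, then 32.5, 11.7 and 0.624 at stages 12, 16 and 30, and RZ was 0, 0 and 1.33 RPKM. For fgf8 it was 0.0150, 0, 1.58, 10.2, 5.93 and 1.63 RPKM in polyA, and 0, 0 and 1.14 in RZ. PolyA and RZ thus differed by less than 2-fold at stage 9 in both genes.

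Most of the ectoderm and neural factors were still high in the early larva. The SRY-box gene sox2, a marker of the neural plate with a single exon, had 24 reads in polyA oocyte, 5 at stage 6, 47 at stage 9, then 3077, 1477 and 2442 at stages 12, 16 and 30, and 2, 3 and 129 reads in RZ. In RPKM its polyA level was 1.5 at stage 9, then 52.7, 40.8 and 65.0 at stages 12, 16 and 30. The sox2 level was thus at least 27.2-fold that of stage 9 in each later library.

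The AP-2 factor gene tfap2a, which acts in epidermis and neural crest, had the highest stage 12 value of the transcription factors. Its polyA level was 0.734 RPKM in the oocyte, 0.00530 at stage 6 and 1.23 at stage 9, then 136.6, 54.8 and 25.7 at stages 12, 16 and 30, and its RZ level was 0, 0 and 1.28 RPKM. The epidermal factor gene grhl3 had polyA RPKM of 0.307, 0, 0.635, 57.3, 27.2 and 13.1, and RZ RPKM of 0.0141, 0.121 and 1.19. At stage 12 these came to 111-fold and 90.2-fold the stage 9 level, and both stayed above 20-fold at stage 30.

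The neural zinc finger gene zic1 had polyA RPKM of 0.216 in the oocyte, 0.00446 at stage 6 and 3.42 at stage 9, then 49.5, 13.0 and 13.0 at stages 12, 16 and 30, and RZ RPKM of 0, 0 and 2.67. The Iroquois gene irx1 had 2.60 RPKM at stage 9, then 26.2, 20.6 and 11.3 at stages 12, 16 and 30. The forkhead gene foxd4l1.1, expressed in early neural ectoderm, was brief in comparison, with 2.07, 21.3, 2.96 and 0.210 RPKM at the same stages. Of the 4 neural and ectoderm factors, all at least 2-fold higher at stage 12, foxd4l1.1 was the one below its stage 9 value at stage 30.

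The highest polyA values after stage 9 belonged to genes on none of the lists. The unnamed model on scaffold 4 had polyA RPKM of 1.71 in the oocyte, 0.0254 at stage 6 and 5.48 at stage 9, then 204, 303 and 189 at stages 12, 16 and 30, and RZ RPKM of 0.203, 0.186 and 1.52. For the sodium pump subunit gene atp1b2 polyA was 0.899, 0, 4.03, 159, 247 and 92.5 RPKM, and RZ 0.0698, 0 and 1.06. These 2 genes made up the largest part of the summed level of the 64 genes at stage 16.

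Also higher at stage 12 were cdc25b, with 71.0 RPKM at stage 12 and 2.61 at stage 9, akap12 with 56.7 at stage 12 and 1.46 at stage 9, and c3orf54 with 13.5 at stage 12 and 1.11 at stage 9. The 2 genes highest in RZ stage 9 were brief, with 8.09 RPKM of gs17 at stage 9, then 42.1, 2.22 and 0.344 at stages 12, 16 and 30, and 4.63, 10.6, 1.56 and 0.0619 RPKM of znf527. For p2ry2 polyA was 7.84 RPKM at stage 12 and 0.187 at stage 9, and for the unnamed model on scaffold 1 it was 16.96 at stage 12 and 0.685 at stage 9. Except for znf527 these genes stood on no list.

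A few genes were highest at stage 16 or stage 30. The heart and limb bud factor gene hand2 had polyA RPKM of 0 in the oocyte, 0.0203 at stage 6 and 1.23 at stage 9, then 0.297, 3.62 and 18.2 at stages 12, 16 and 30, and RZ RPKM of 0, 0 and 1.80. For txn it was 1.46, 0.0708, 1.42, 0.546, 24.1 and 21.5 RPKM in polyA. Both were at least 2-fold lower at stage 12 than at stage 9 and more than 10-fold higher at stage 30, although with equal medians both lay below 1 RPKM at stages 9 and 12. The Golgi membrane protein gene golm1 had 1.02 RPKM at stage 9, then 3.02, 35.2 and 6.78 at stages 12, 16 and 30. For cadps the level was 4.62 RPKM at stage 30 and 0.808 at stage 9, and for palm it was 12.4 at stage 30 and 0.931 at stage 9.

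The genes highest in polyA oocyte had a course unlike the rest. For ncam2 polyA was 3.52 RPKM in the oocyte, 0.0218 at stage 6, 0.474 at stage 9 and 0.0503 to 0.258 afterwards, and for tp53i3 it was 4.62 in the oocyte, 0.355 at stage 6 and 1.105 at stage 9. RZ oocyte held 0.176 RPKM of ncam2 and 0.0525 of tp53i3. The last genes of the 64, named here after their values were seen, were the syntaxin gene stx19, lpar6, the tyrosine aminotransferase gene tat and the model on scaffold 7, all at least 2-fold higher at stage 12, with stage 12 levels of 8.55, 6.85, 30.9 and 33.5 RPKM. For znf184 polyA stayed between 1.09 and 1.88 RPKM from stage 9 on, and for fam190a it was 0.0305 RPKM at stage 12 and 0.652 at stage 9. The level of hspa2 was 1.51 RPKM at stage 12 and 1.09 at stage 9.

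The 64 genes were short and compact beside other genes of the late blastula. The rule did not use span, but its RPKM limits rest on fewer reads where exons are short. Span is thus not independent of the rule. The comparison was not matched on level, and the copies of the Ventx and zinc finger loci are not independent cases, so the values are a description. Their median span on the genome was 5490 bp, against 18044 bp for the 9098 other genes with 1 RPKM or more in RZ stage 9, and 48.4% against 10.1% spanned less than 5 kb. A single exon, inferred from whole reads, was found in 12.5% of them, against 1.69% of the others. The span ran from 468 bp (inhbb) to 218369 bp (cadps). Genes highest at stage 9 had a median span of 2907 bp and those highest at stage 12 one of 5549 bp.

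Some of the 64 genes were neighbours. Of the 64 genes 11 had another of them within 100 kb (17.2%), whereas 95 of the 9098 other genes had 1 of the 64 within that distance (1.04%). The 11 came from the Ventx, Siamois and zinc finger loci, which are gene families, so they are not independent cases.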

How the data were processed

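Polyadenylated and ribosomal RNA depleted RNA of Xenopus tropicalis was measured in 9 libraries, 6 polyA and 3 RZ, grouped by the sample labels. Reads were aligned by the authors with BWA 0.6.1 to assembly JGI 7.1, reads with several positions were left out, and the deposited RPKM of a gene is the mean over the non-redundant exons of its isoforms. The cDNA was primed with random hexamers and kept no strand, so overlapping genes on opposite strands cannot be told apart. The table names all samples in a single header field, whose order gave the columns.

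The 64 genes and the role lists were chosen with earlier results of these data known. No pseudocount or scaling was used. Fate classes compared polyA at a later stage with stage 9, at a fold of 2, for genes with at least 1 RPKM in either, and ratios were log2 of polyA over RZ. Mapped reads were worked out from the lowest of the commonest small values of RPKM multiplied by length, taken as a single read on a single-exon gene. With these depths 525 genes gave whole reads within 0.001 in all 9 libraries and were taken as single-exon, without use of annotated exons. Intervals are exact Poisson at the 95% level. Levels at stage 9 compare libraries of different selection. The precision is limited by depth, between 13422643 and 44490754 mapped reads per library.

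Genes were named by rule: the 10 highest in RZ stage 9, list members, the 5 lowest and highest polyA to RZ ratios, the 5 highest at each later stage, the 5 with least later polyA RNA, the genes next to a threshold and up to 5 with polyA RNA before stage 9. This named 54, and the other 10 (znf470, znf350, znf184, stx19, lpar6, txn, odf3l1, fam190a, tat and the model on scaffold 7) were added after their values were seen. The result for 1 of the 64 genes is not reported here by name, but the gene is in all counts and plots of the whole set. Alternatives changed the thresholds, the scaling, the fold, the pseudocount and the filter. The procedures were tested on simulated data. Promoter motifs were not analysed here. Python 3.11.15 was used with numpy 2.4.6, pandas 2.3.3, scipy 1.17.1 and matplotlib 3.10.9.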

Additional observations from a re-analysis of the deposited data

How the results depend on the processing

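Of 116 alternative values for 15 results, 83 stayed within the interval of the value as reported (counts within 1.5 times, medians within 0.1), 32 moved and 1 reversed, namely the median log2 polyA to RZ ratio, which was 0.0576 when RZ oocyte and RZ stage 6 had to be below 0.1 RPKM. Under that threshold 6.98% of the genes had 1 RPKM in polyA before stage 9. With 0.5 RPKM in its place 102 genes met the rule, of which 40.9% were highest at stage 12 and 23.7% at stage 16. The cause of these moves was not tested.

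A minimum of 0.5 RPKM in RZ stage 9 gave 152 genes, of which 48.0% had 1 RPKM in polyA stage 9, with a median log2 ratio of -0.21. Then 65.5% were higher and 20.17% lower at stage 16, 60% higher and 24.2% lower at stage 30, and the highest library was stage 12 for 37.9%, stage 16 for 25.8% and stage 30 for 19.7%. A minimum of 2 RPKM gave 21 genes, of which 95.2% had 1 RPKM in polyA stage 9. At stage 16 28.6% were then higher and 47.6% lower, at stage 30 23.8% higher and 57.1% lower, and 38.1% were highest at stage 9 and 0 at stage 16. At stage 30 more genes were lower than higher also with RZ oocyte and stage 6 below 0.1 RPKM (33.3% higher, 43.6% lower), with polyA before stage 9 below 0.3 RPKM (35.3% and 47.1%), at 3-fold (34.5% and 38.2%) and with no minimum level (37.5% and 40.6%), and with 0.5 added to each RPKM both shares were 38.2%. The share higher at stage 12 stayed between 57.1% and 79.5% under all alternatives tried.

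With the rule applied to libraries of equal median, 54.0% had 1 RPKM in polyA stage 9, the median log2 ratio was -0.54, 19.6% were lower at stage 16 and 55.8% higher at stage 30. Asking also for polyA below 0.3 RPKM before stage 9 left 40 genes, with 5.26% highest at stage 16. A level of 2 RPKM in polyA stage 9 was reached by 46.9% and one of 0.5 by 93.8%. Among genes with 5 RPKM in a polyA library 8.70% were highest at stage 9 and 71.7% at stage 12. No paired analysis was possible because there was 1 library per condition, and no replicate could be left out. Depth limits values below about 0.224 RPKM in polyA stage 9, the 3 reads on 1 kb.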
